A study of Homo sapiens with 3 samples.

Results

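UGA stop codons followed by C (UGAC) were examined in ribosome profiling libraries of HEK293T, a human line of embryonic kidney origin with the SV40 large T antigen. Ribosome profiling counts the mRNA fragments covered by ribosomes. A transcript was a member when it was listed in all 3 libraries, had enough CDS counts, ended in UGA with C as the next nucleotide, had at least 1 in-frame stop codon in its 3′UTR and had a readthrough region of at least 18 nt. There were 524 such transcripts of 5438 that met the same conditions with any stop codon and any next nucleotide, and 866 before the count minimum. That minimum, on the mean of the deposited CDS counts over the 3 libraries, lies between SLFN5 (127.7, left out) and PDSS2 (128.3, kept). The rule used sequence, length and CDS counts and no reads past the stop codon.

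The libraries were Untreated A, Untreated B and G418 A, all from cells of the same line harvested after 24 hours, the last with 500 µg/mL of G418 in the medium and the other two with none. There were thus 2 untreated libraries and 1 with G418, which allows no test between the conditions. The study describes the replicates of a condition as biological replicates. Every interval below covers counting error only.

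A stop codon is decoded by the release factor eRF1, which competes with near-cognate tRNAs that can insert an amino acid and let the ribosome go on in the same frame. UGA is known as the leakiest of the stop codons and C as the next nucleotide is known to weaken termination, above all when C is the start of the triplet CUA. G418 is an aminoglycoside that binds the decoding centre of the ribosome and lets near-cognate tRNAs be accepted more often, at sense codons and at stop codons. A ribosome that reads through the normal termination codon (NTC) continues to the next stop codon in its frame, the 3′TC, and adds a C-terminal extension to the protein.

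The genome context of 515 of the 524 stop codons was read from the hg38 reference with the GENCODE 44 annotation. The 13 members in which UGA is followed by CUA are shown first, since this triplet is the known signal of the readthrough extensions of MDH1 and LDHB. Each sequence runs 5′ to 3′ in DNA letters, from 9 bases before the stop codon to 12 bases after it, with the stop codon and CUA in capitals, in the order of the RRTS (the density of the readthrough region as a percentage of the CDS density) in G418 A.
FUZ: ccacttcttTGACTAcctagcagt, stop codon at chr19:49807151-49807153, minus strand, exon 11 of 11
PAN2: ctggcgctcTGACTAcccttccca, stop codon at chr12:56317609-56317611, minus strand, exon 26 of 26
GSKIP: ggacagtcaTGACTAcactttttc, stop codon at chr14:96385682-96385684, plus strand, exon 4 of 4
HPS6: cgggacctaTGACTAcccttcagg, stop codon at chr10:102067800-102067802, plus strand, exon 1 of 1
MED18: aggctcatgTGACTAagaggatct, stop codon at chr1:28334968-28334970, plus strand, exon 3 of 4
MDH1: tcctctgccTGACTAgacaatgat, stop codon at chr2:63606985-63606987, plus strand, exon 9 of 9
LMAN1: aaattctttTGACTAccattttcc, stop codon at chr18:59331093-59331095, minus strand, exon 13 of 13
TTC4: cagatacgaTGACTAagccagggc, stop codon at chr1:54741511-54741513, plus strand, exon 10 of 10
NUBP2: tgcctccccTGACTAaggccacct, stop codon at chr16:1788712-1788714, plus strand, exon 7 of 7
LDHB: aaagacctgTGACTAgtgagctct, stop codon at chr12:21635542-21635544, minus strand, exon 8 of 8
PHF19: accccttacTGACTAgcccccggg, stop codon at chr9:120857944-120857946, minus strand, exon 15 of 15
MAPK8: tgctgtagaTGACTActtgggcca, stop codon at chr10:48435027-48435029, plus strand, exon 11 of 11
DUS2: gaaggctggTGACTActcttcctg, stop codon at chr16:68078984-68078986, plus strand, exon 16 of 16
Only MDH1, LDHB and PHF19 among these continue with G, as CUAG.

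Members at the extremes of the response to G418 are shown next, with the stop codon and the C in capitals. RICTOR, KIF2C, MRPL53 and BASP1 were among the 12 with the highest RRTS in G418 A, MYL6, UBE2A and RBM3 among the 8 with the lowest, and TAF1D and NAA38 among the 8 with the highest RRTS without the drug.
RICTOR: gctgaatccTGACctcatatttat, stop codon at chr5:38942304-38942306, minus strand, exon 38 of 38
KIF2C: cggccccagTGACgactgcaaata, stop codon at chr1:44767177-44767179, plus strand, exon 21 of 21
MRPL53: actggtcgcTGACagcgccaaaga, stop codon at chr2:74472119-74472121, minus strand, exon 3 of 3
BASP1: gtgaaagagTGACaaggacagcct, stop codon at chr5:17275898-17275900, plus strand, exon 2 of 2
MYL6: ccccctgccTGACagccacaggag, stop codon at chr12:56162320-56162322, plus strand, exon 6 of 7
UBE2A: gtgaactttTGACagatggataag, stop codon at chrX:119590167-119590169, plus strand, exon 6 of 6
RBM3: actctgtcaTGACcctctcacctt, stop codon at chrX:48577160-48577162, plus strand, exon 3 of 3
TAF1D: ctgaaaatgTGACaggatcatgaa, stop codon at chr11:93736161-93736163, minus strand, exon 6 of 6
NAA38: ccgtatctcTGACcacgatggcgc, stop codon at chr17:7856731-7856733, minus strand, exon 3 of 3
The base after UGAC, which is +5 when the first base of the stop codon is +1, is C in RICTOR, RBM3 and NAA38, G in KIF2C and A in MRPL53, BASP1, MYL6, UBE2A and TAF1D, so the high and the low examples share bases at this position.

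Readthrough regions of UGAC transcripts carried few reads without the drug and many with it. They held 697 and 877 reads in Untreated A and B and 8729 in G418 A. Over all members, 15537, 26563 and 20901 reads would have been expected had ribosomes been as dense there as on the CDS. The ratio of observed to expected reads, the pooled RRTS, was 4.49% (95% Poisson interval 4.16 to 4.83) and 3.30% (3.09 to 3.53) in Untreated A and B, with a mean of 3.89% ± 0.837 (SD, n = 2). With G418 it was 41.8% (40.9 to 42.6). The value in G418 A was 10.7-fold above this mean, 9.31-fold above Untreated A and 12.6-fold above Untreated B, while the untreated libraries differed from each other by 1.36-fold.

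Over all 5438 transcripts the pooled RRTS was 1.61%, 1.27% and 21.8% in the same order, and the G418 fold over the untreated mean was 15.1. UGAC transcripts made up 9.64% of the transcripts. They had 5.82% of the expected reads in Untreated A, 5.99% in Untreated B and 6.25% with G418. Of the readthrough reads they had 16.2% in Untreated A, 15.6% in Untreated B and 11.996% with G418. They were thus above the level of all transcripts in every library, and their share of the readthrough reads was lower in G418 A than in either untreated library. With G418, UGAA transcripts had a pooled RRTS of 33.6%, UGAU transcripts 36.8% and UGAG transcripts 22.7%. The corresponding untreated means were 1.98% ± 0.638, 1.85% ± 0.394 and 1.15% ± 0.0353 (SD, n = 2). These differences between signals were not tested here.

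A typical UGAC transcript had no read past its stop codon without the drug. Untreated A showed reads for 174 members (33.2%, Wilson 95% interval 29.3 to 37.3), Untreated B for 171 (32.6%, 28.8 to 36.8) and G418 A for 449 (85.7%, 82.4 to 88.4). The same held for 23.8%, 22.1% and 75.9% of all transcripts. Both untreated libraries had reads for 101 members, against 11.5% of all transcripts, and each of these 101 also had reads in G418 A. Neither untreated library had one for 280 members, against 65.5% of all transcripts. Reads were seen in G418 A alone for 215 members and in no library for 65. The remaining 10 without a read in G418 A had at least 1 in an untreated library. The 215, 65 and 10, and the G418 reads of the 101, were not counted over all transcripts and are not called particular to UGAC.

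The median RRTS of the 524 members was 0% in both untreated libraries and 40.01% in G418 A, with quartiles of 17.1% and 77.8%. The median over all transcripts in G418 A was 18.6%. An RRTS of at least 50% was reached by 215 members in G418 A, or 41.0%, against 21.7% of all transcripts. The RRTS was higher in G418 A than in both untreated libraries for 428 members (81.7%), against 72.0% of all transcripts, and lower than in both for 4 (0.763%), against 0.515%.

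**Figure D1:**
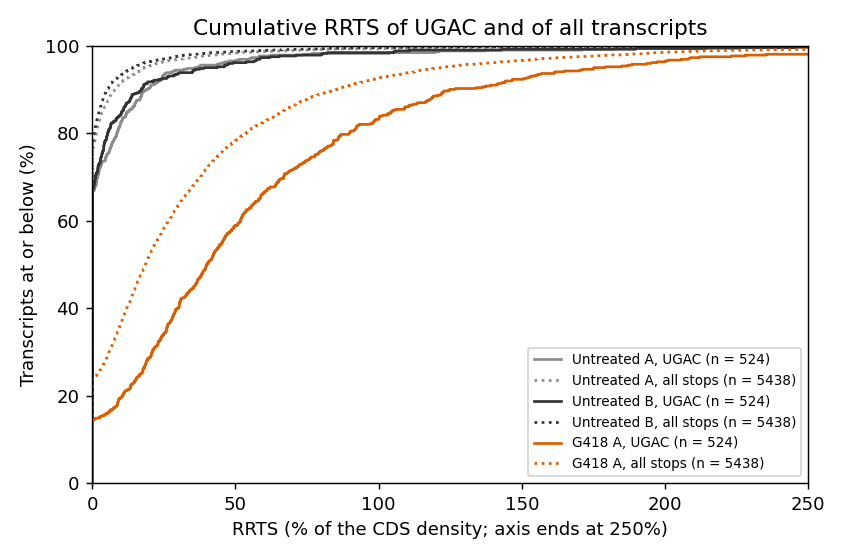
Cumulative share of transcripts (vertical axis, %) at or below a given RRTS (horizontal axis, % of the CDS density, ended at 250%) in Untreated A (light grey), Untreated B (dark grey) and G418 A (orange), for the 524 UGAC transcripts (solid) and all 5438 transcripts (dotted). The G418 A curve of UGAC crosses 50% of transcripts at 40.01% and that of all transcripts at 18.6%, while the untreated curves start above 60% at an RRTS of 0.

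Per transcript, the depth sets what can be told apart. The median number of reads expected at an RRTS of 100% was 10.1 and 18.8 in Untreated A and B and 14.9 in G418 A, and fewer than 3 were expected for 76, 37 and 47 members. The Poisson interval in G418 A lay above both untreated intervals for 149 members (28.4%), against 25.6% of all transcripts, so this count was near the background. The untreated intervals lay apart from each other for 9 members (1.72%), against 0.699% of all transcripts. Those 9 were ATL2, BEX3, DNAJC8, ID3, IFT27, IRF2BP2, SPTSSA, TAF1D and TRIR, named here after their values were seen. Among the members with the fewest CDS counts, ZNF322, PDSS2 (mean 128.3) and PLA2G15 (129) lay just inside the minimum, with an RRTS in G418 A of 0%, 22.9% and 36.1%. SLFN5 (127.7), TMEM60 (126.7) and TSEN54 (126) lay just outside it, with 0%, 12.3% and 139%.

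The highest RRTS in G418 A belonged to genes of several kinds, listed here as the 12 highest among the 117 members with at least 20 readthrough reads in that library. The highest was RICTOR, the defining subunit of the mTORC2 kinase complex, with 26 reads in G418 A where 8.83 were expected at the CDS density. Its RRTS was 24.4% and 56.5% in Untreated A and B and 295% (192 to 432) in G418 A. KIF2C, a kinesin that depolymerises microtubules in mitosis, had no read in either untreated library and 25 in G418 A, an RRTS of 293% (190 to 432). Reads per nt were thus more frequent past these stop codons than on the CDS in G418 A, although the low numbers of expected reads leave wide intervals. The region runs to the end of the 3′TC, where the study saw ribosomes enriched with G418, while the CDS density leaves out its last 15 nt. How many of the reads lay at the 3′TC was not tested.

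PLPP6, a lipid phosphatase, and FAM216A had no read without the drug and an RRTS of 281% (178 to 421) and 265% (179 to 379) with it. HMGXB4, an HMG box protein, and PRXL2C, a peroxiredoxin-like protein, also had no untreated read, and their RRTS in G418 A was 209% and 175%. MRPL53, a protein of the large mitochondrial ribosomal subunit, had 24.5% and 17.9% in Untreated A and B and 228% (172 to 297) in G418 A. PLPP6, FAM216A, HMGXB4 and PRXL2C thus had reads in G418 A alone, and MRPL53 had some in every library. Depth differed, as reads expected at the CDS density in Untreated A and B were 24.5 and 44.6 for MRPL53. They were 5.39 and 11.2 for PLPP6, 6.52 and 9.43 for FAM216A, 14.3 and 21.4 for HMGXB4, and 7.59 and 16.5 for PRXL2C.

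Among genes of cell division, MZT1, a small component of γ-tubulin complexes, had an RRTS of 12.9%, 10.8% and 208%, with the G418 value last. ZWINT, a kinetochore protein, had 55.6%, 21.6% and 197% in the same order. IRF2BP2, a transcriptional corepressor, had 137% in Untreated A but 12.6% in Untreated B, from 10 and 2 reads, and 235% in G418 A. Its G418 interval overlapped that of Untreated A, as the bars of the plot of the highest members show. PPDPF had 10.7%, 0% and 223%, with a single untreated read.

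BASP1, a myristoylated protein of the inner face of the plasma membrane, was measured with the greatest precision among the 12. It had 3 reads in Untreated A, 2 in Untreated B and 254 with G418, where 140, 338 and 136 were expected. Its RRTS was therefore 2.14%, 0.592% and 187% (165 to 212). Its region of 255 nt was the longest of the 12, whose regions otherwise ran from 21 to 96 nt.

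Of all members, 88 (16.8%) had an RRTS of at least 100% in G418 A, against 400 of all transcripts (7.36%). Their median region was 43.5 nt, and 51 of them had fewer than 10 expected reads. Only 2 of the 88, BASP1 and SPTSSA (named after its value was seen), had at least 100 expected reads. The lower end of the interval lay above 100% for 20 of the 88, which is 3.82% of the 524 members, against 1.49% of all transcripts. Over all transcripts this held for 81 of the 400, so the share within those of at least 100% was near the background. No untreated read had been seen for 39 of the 88, a share that was not counted over all transcripts.

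**Figure D2:**
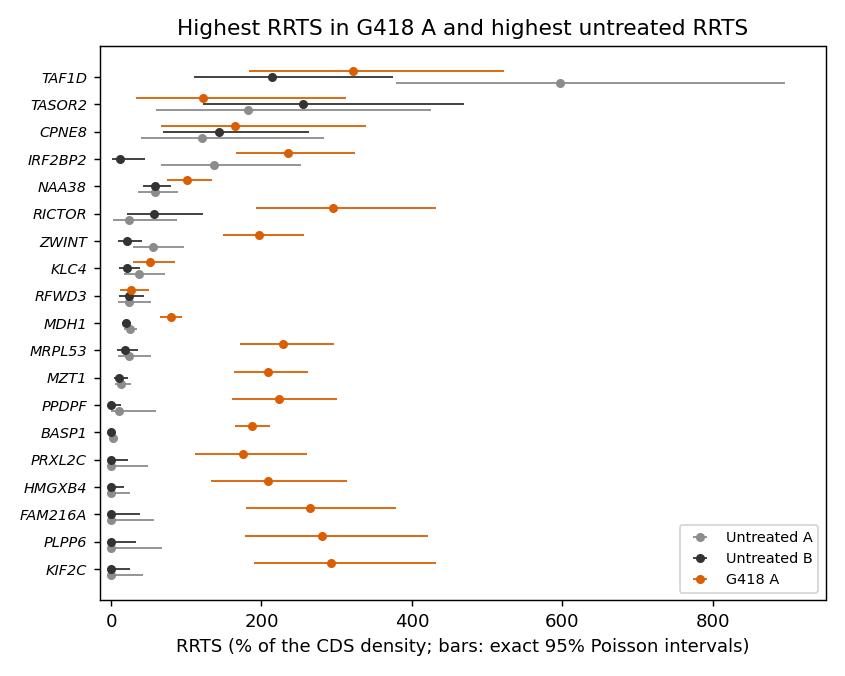
RRTS (horizontal axis, % of the CDS density) of the 12 members with the highest value in G418 A and the 8 with the highest untreated mean (ZWINT belongs to both), ordered by the untreated mean, in Untreated A (light grey), Untreated B (dark grey) and G418 A (orange). Points are values and bars exact 95% Poisson intervals. TAF1D, TASOR2 and CPNE8 have overlapping intervals in all 3 libraries except for those of TAF1D in the untreated libraries, whereas the intervals of KIF2C, PLPP6, FAM216A and BASP1 in G418 A lie far to the right of the untreated ones.

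At least 5 reads in each untreated library were seen for 27 members (5.15%), against 2.39% of all transcripts. These 27 held 43.8% of the members' readthrough reads in Untreated A and 38.3% of those in Untreated B. The highest RRTS of these was that of TAF1D, a subunit of the RNA polymerase I factor SL1, whose region of 24 nt held 23 reads in Untreated A, 12 in Untreated B and 16 with G418. Its RRTS was 597% and 214% in Untreated A and B and 322% in G418 A, so that the value with the drug lay between the untreated values. TASOR2 had 182%, 255% and 122% from 5, 10 and 4 reads. CPNE8, a calcium-dependent phospholipid-binding protein, had 121%, 143% and 165%.

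NAA38, an auxiliary subunit of the N-terminal acetyltransferase NatC, had nearly equal values of 58.1% and 58.7% in the untreated libraries, from 21 and 40 reads. In G418 A it had 101% (74.5 to 135) from 47 reads, and the intervals of the 3 libraries overlapped. KLC4, a kinesin light chain, had 37.5%, 21.1% and 51.9%. RFWD3, a ubiquitin ligase of the DNA damage response, had 24.3%, 23.3% and 26.4%, from 6, 9 and 9 reads. TAF1D, TASOR2, CPNE8, NAA38, KLC4 and RFWD3 thus had G418 intervals that overlapped at least 1 untreated interval, while those of ZWINT and MDH1 lay above both.

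The readthrough extensions of MDH1 and LDHB end in a peroxisomal targeting signal, which sends part of these cytosolic enzymes of NADH metabolism to peroxisomes. MDH1, cytosolic malate dehydrogenase, had 36 and 44 reads in its 57 nt region in Untreated A and B. Its RRTS was 25.4% (17.8 to 35.1) and 19.4% (14.1 to 26.1) in these libraries and 79.3% (65.7 to 94.9) in G418 A, where 150 reads would have equalled the CDS density. LDHB, the heart-type subunit of lactate dehydrogenase, had 27, 29 and 65 reads in a region of 21 nt. Its RRTS was 15.3% (10.1 to 22.3), 11.4% (7.66 to 16.4) and 40.3% (31.1 to 51.4).

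By number of reads MDH1 ranked 1 among the members in both untreated libraries, and LDHB ranked 2 and 3. By untreated mean RRTS they ranked 8 and 13 among the 27 members with at least 5 reads in each untreated library. The G418 value of MDH1 was 3.54-fold and that of LDHB 3.01-fold above the untreated mean, against 10.7-fold for all members pooled. GENCODE 44 annotates 48 of the 57 nt of the MDH1 region and 12 of the 21 nt of the LDHB region as CDS. ACP2, lysosomal acid phosphatase, was the only other member on the list of 11 genes known for readthrough after UGAC, and had 0, 3 and 1 reads. Its intervals overlapped in all 3 libraries.

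All 13 members with CUA after UGA had canonical stop codons, and 11 (84.6%) had reads in G418 A, against 85.7% of the other matched members. The pooled RRTS of the 13 was 16.2% (13.2 to 19.7) and 10.8% (8.89 to 13.1) in Untreated A and B and 59.3% (53.8 to 65.2) in G418 A. The other 502 matched members had 4.06%, 3.03% and 41.4%. The median in G418 A was 68.4% against 39.7%. Without MDH1 and LDHB the remaining 11 had a pooled RRTS of 12.3%, 6.77% and 59.5%, so the untreated level was lower without this pair and the G418 level was about the same.

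Within the CUA group the values spread widely. LMAN1, a cargo receptor of the secretory pathway, had 13.9%, 12.2% and 68.4% from 9, 10 and 59 reads. GSKIP, a protein that binds GSK3β and protein kinase A, had 23.7%, 5.28% and 109%, and TTC4, a co-chaperone, had 15.1%, 4.85% and 51.9%. NUBP2, a factor of cytosolic iron-sulfur protein assembly, had 0 and 11 untreated reads and 35 with G418, an RRTS of 48.1%. These genes had G418 intervals above both untreated intervals.

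PHF19, a Polycomb-like protein, had the lowest RRTS in G418 A among the CUA members with any read. It has CUAG like MDH1 and LDHB and a region of 471 nt, and its RRTS was 2.50%, 3.80% and 6.004% (1.64 to 15.4) from 1, 3 and 4 reads. FUZ, a planar cell polarity effector, had 359% in G418 A from 5 reads where 1.39 were expected, so the interval reached from 117% to 838%. MAPK8 and DUS2 had no read in any library, with 7.05 and 1.57 expected in G418 A. For MAPK8 this allows an RRTS of up to 52.3% in G418 A, and for DUS2 of up to 234%, by the upper end of the interval.

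**Figure D3:**
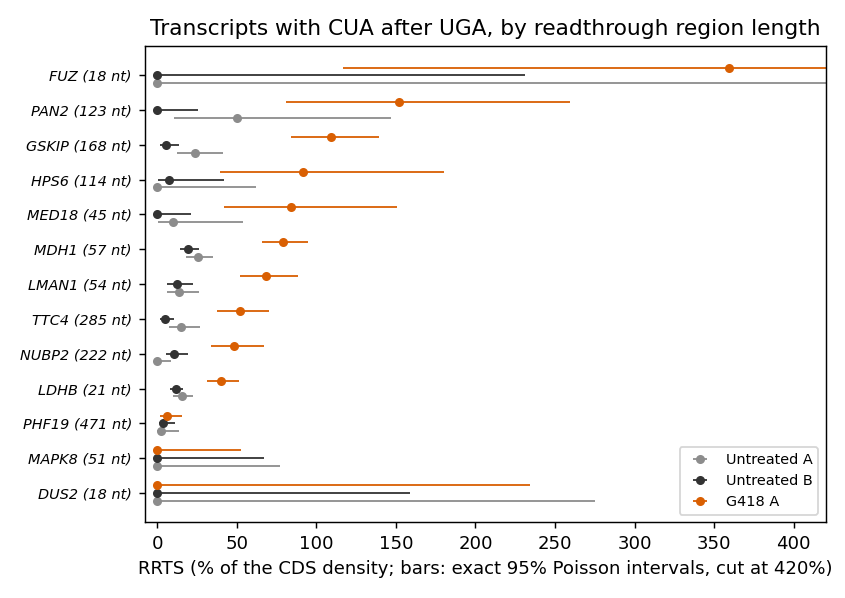
RRTS (horizontal axis, % of the CDS density) of the 13 members with CUA after UGA, with the length of the readthrough region in parentheses, in Untreated A (light grey), Untreated B (dark grey) and G418 A (orange). Points are values and bars exact 95% Poisson intervals, cut at 420%. MDH1, LDHB and LMAN1 have untreated intervals clear of 0, with values of 11.4% to 25.4%, and the G418 A values of the 13 members run from 0% to 359%.

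By the nucleotide after UGAC (+5), U had the highest pooled RRTS in every library, with 10.4% and 6.28% in Untreated A and B and 53.3% in G418 A (126 members). C had the lowest in G418 A, at 2.39%, 2.57% and 36.6% (202 members). A had 3.67%, 2.36% and 39.6% (131 members) and G had 4.84%, 3.54% and 49.3% (56 members). The medians in G418 A were 46.1% for U, 45.4% for G, 44.3% for A and 35.4% for C, so U, G and A lay close together and C lower. Among members with at least 30 expected reads they were 41.4% for U, 40.6% for G, 33.9% for A and 33.2% for C, so there A lay beside C. Over all transcripts the medians in G418 A were 20.4%, 17.7%, 20.03% and 17.1% in the same order. At +6 the medians ran from 37.7% (C) to 45.6% (A). The pooled values at +6 ran from 31.1% (29.6 to 32.7) for G to 49.8% (47.8 to 51.9) for A. By the stop codon that ends the region, the medians were 40.3% for UAA, 40.6% for UAG and 39.9% for UGA. The pooled values were 50.2% (48.2 to 52.1), 42.1% (40.2 to 44.1) and 38.2% (37.0 to 39.4) in the same order, with intervals apart where the medians were nearly equal.

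The lowest values at high depth belonged to transcripts whose stop codon is not the canonical one of their gene. Among the 57 members with at least 100 expected reads in G418 A, the 5 lowest were RBM3, UBE2A, MYL6, PPP1CC and SUMF2. RBM3, a cold-induced RNA-binding protein, had no readthrough read in any library where 404, 535 and 323 were expected. UBE2A, a ubiquitin-conjugating enzyme, also had none, where 318, 429 and 360 were expected. A count of 0 limits the RRTS in G418 A to at most 1.14% for RBM3 and 1.02% for UBE2A, by the upper end of the Poisson interval.

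MYL6, the essential light chain of nonmuscle myosin, had no read in either untreated library and 3 in G418 A, where 941 were expected, an RRTS of 0.319%. PPP1CC, a catalytic subunit of protein phosphatase 1, had 1 read of 150 expected in G418 A, and SUMF2, a paralogue of the sulfatase-modifying enzyme, had 2 of 169. In none of the 5 is the stop codon the one of the Ensembl canonical transcript in GENCODE 44, which annotates 2 stop codons for RBM3 and for UBE2A, 4 for MYL6, 5 for PPP1CC and 3 for SUMF2. The next 3 in order were PTDSS2, a phosphatidylserine synthase, at 7.12%, FKBP8, an immunophilin of the mitochondrial outer membrane, at 7.31%, and DDX6, an RNA helicase of processing bodies, at 7.76%. PTDSS2 and FKBP8 have canonical stop codons, and DDX6 was not matched to the annotation.

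Among the matched members, 29 of 515 (5.63%) had a stop codon other than the canonical one, against 6.83% of all matched transcripts. The 29 had a pooled RRTS of 0.444% and 0.465% in Untreated A and B and 2.49% (1.93 to 3.16) in G418 A, from 10, 17 and 67 reads. The 486 members with the canonical stop codon had 5.26%, 3.79% and 48.0% (47.0 to 49.0). The medians in G418 A were 0.319% and 42.6%. This split was made after the values were seen. Over all transcripts, those with other stop codons (362) had a pooled RRTS of 5.31% in G418 A and those with canonical ones (4939) 24.6%, so the same order was found outside UGAC. How much of the CDS reads of these 29 genes came from isoforms with other ends was not tested.

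No UGAC transcript with the canonical stop codon and at least 30 expected reads was without a read in G418 A. Of the 75 members without one, 53 had fewer than 10 expected reads and the median was 4.66. The 6 with at least 30 expected reads, of 168 such members, were RBM3, UBE2A, RPL28, RUVBL1, ABHD12 and CTNS, named after their values were seen, and each has a stop codon other than the canonical one. Over all transcripts of any depth 24.1% had no read in G418 A. With 30 to under 100 expected reads, 92.5% of all transcripts and 96.4% of the members had a read there. With at least 100 expected reads the share was 96.5% for both. Few transcripts without a read at this depth are thus not called particular to UGAC. Canonical stop codons over all transcripts were not counted by depth. Among the 51 canonical members with at least 100 expected reads, the RRTS in G418 A ran from 7.12% to 187%, while the 5 others reached at most 1.18%.

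**Figure D4:**
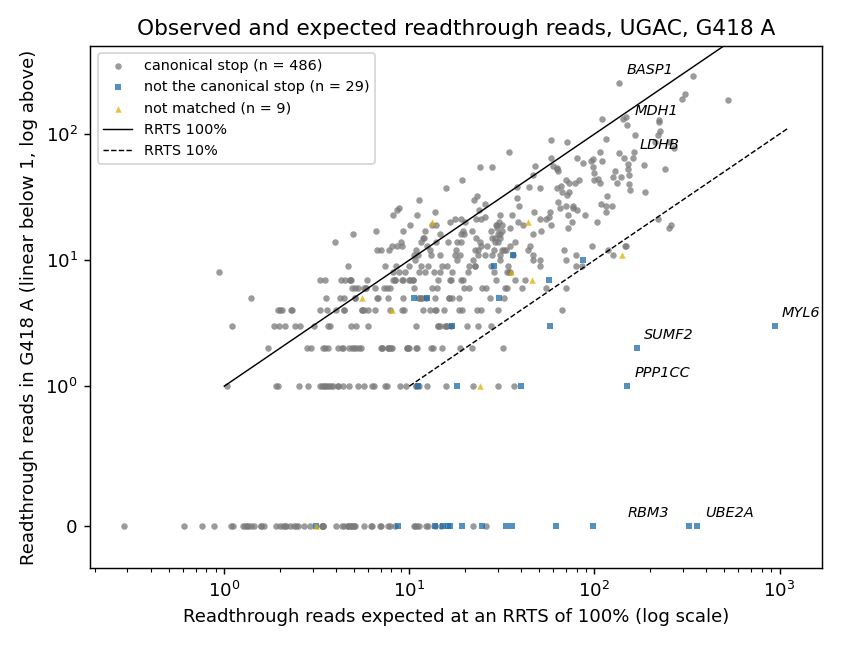
Readthrough reads seen in G418 A (vertical axis, linear below 1 and logarithmic above) against the reads expected at the CDS density (horizontal axis, log scale) for the 524 UGAC transcripts, with canonical stop codons in grey, other stop codons as blue squares and unmatched transcripts as yellow triangles. The solid line marks an RRTS of 100% and the dashed line 10%. BASP1 lies above the solid line with 254 reads, and MYL6, UBE2A, RBM3, PPP1CC and SUMF2 lie far below the dashed line with 0 to 3 reads.

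Readthrough regions of the members had a median length of 75 nt (quartiles 42 and 126 nt) and ran from 18 to 750 nt, against a median of 66 nt over all transcripts. The shortest regions had the highest pooled values. In regions of 18 to under 60 nt (216 members) the pooled RRTS was 9.91% and 6.89% in Untreated A and B and 58.7% in G418 A. In regions of 60 to under 120 nt (156 members) it was 3.53%, 3.26% and 41.9%. In regions of 120 to under 240 nt (114 members) it was 2.94%, 2.29% and 34.8%, and in the 38 of at least 240 nt it was 3.45%, 2.02% and 41.3%.

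The medians in G418 A did not fall in the same steps. They were 45.9%, 36.5%, 42.8% and 28.7% from the shortest to the longest class, and 18.5%, 19.6%, 19.1% and 12.8% over all transcripts. Across members, Spearman's rho between region length and RRTS in G418 A was -0.08 (n = 524), and -0.05 over the 168 with at least 30 expected reads. The length enters the number of expected reads, so the points share it with the RRTS. Members with a read were more frequent in the longer classes, where more reads were expected: 170 of 216, 134 of 156, 107 of 114 and 38 of 38 had at least 1 in G418 A, from the shortest class to the longest. Over all transcripts the shares were 66.7%, 79.7%, 88.0% and 89.6%.

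Among members with at least 20 reads in G418 A, the shortest regions were the 21 nt of LDHB and FAM216A, with an RRTS of 40.3% and 265%. The longest were the 384 nt of MRPS18A, a mitochondrial ribosomal protein, and ERGIC1, a protein of the ER-Golgi intermediate compartment. MRPS18A had 2.42%, 1.18% and 28.9%, and ERGIC1 had 2.43%, 2.10% and 22.99%, for the untreated libraries and G418 A in turn. The longest region of all members, the 750 nt of the chromatin remodeller CHD3, gave 10.1%, 13.1% and 2.71% from 4, 8 and 1 reads. CHD3 was 1 of the 4 members with a lower RRTS in G418 A than in both untreated libraries, beside TASOR2, CINP and DCP1A, and was chosen after its values were seen. GENCODE 44 annotates 110 nt of its region as CDS.

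By CDS length the members showed no steady order. The median CDS was 1553 nt, against 1488 nt over all transcripts. The median RRTS in G418 A was 40.5% for a CDS under 600 nt (58 members), 47.6% for 600 to under 1200 nt, 33.2% for 1200 to under 2400 nt (193) and 38.8% for at least 2400 nt (145). The pooled values in G418 A were 39.6%, 45.9%, 38.6% and 44.3% in the same order. With an RRTS of 0 left out, the median of the longest class was 59.9%. Spearman's rho between CDS length and RRTS was -0.05 (n = 524), and -0.11 over the 168 members with at least 30 expected reads. Over all transcripts the median RRTS was 19.7%, 21.0%, 18.4% and 13.9% across these classes.

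**Figure D5:**
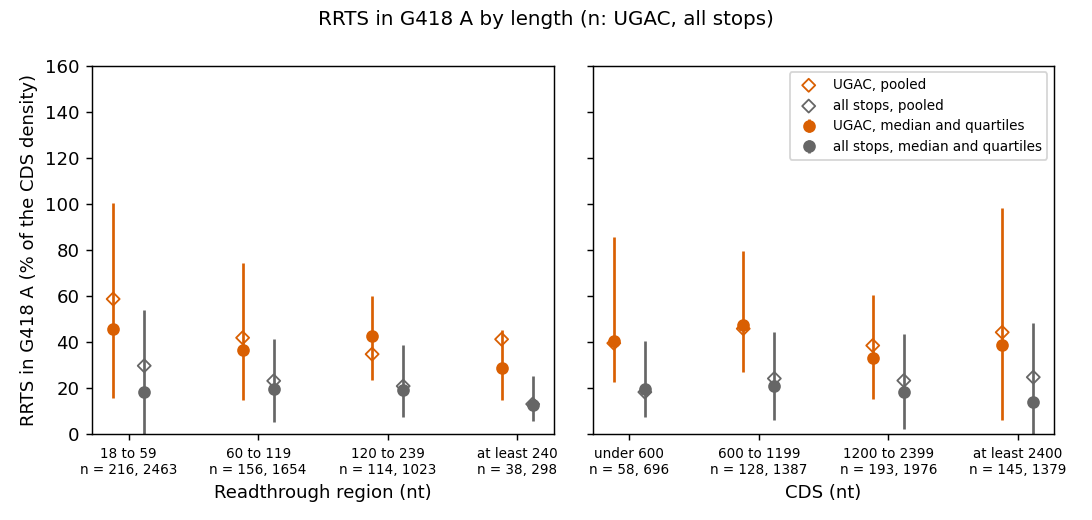
RRTS in G418 A (vertical axis, % of the CDS density) by length of the readthrough region (left) and of the CDS (right), for UGAC (orange) and all transcripts (grey). Filled points are medians with bars to the quartiles and open diamonds are pooled values, with the number of UGAC and of all transcripts under each class. UGAC lies above all transcripts in every class, with medians of 28.7% to 47.6% against 12.8% to 21.0%.

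The members also differed by the base composition of the region. Regions with a GC content under 40% (93 members) had a median RRTS of 63.8% in G418 A. The medians were 48.1% for 40% to under 50%, 35.9% for 50% to under 60% (158) and 30.3% for at least 60% (145). Over all transcripts they were 21.3%, 21.0%, 18.1% and 14.4%. Spearman's rho was -0.21 across the 515 matched members and -0.26 across the 164 of them with at least 30 expected reads, against -0.08 across all 5301 matched transcripts. All points come from 1 library, and depth was not equal between classes, with a median of 9.34 expected reads in the lowest class and 18.6 in the highest.

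The pooled RRTS also moved with the depth of the transcript. In G418 A it was 72.3% for the 47 members with under 3 expected reads, 72.5% for 3 to under 10, 55.3% for 10 to under 30, 42.6% for 30 to under 100 and 35.1% for at least 100. Over all transcripts it was 46.7%, 41.6%, 32.7%, 27.2% and 17.9%. Expected reads are set by the CDS density, which is also the denominator of the RRTS. The median RRTS was 0%, 50.9%, 43.2%, 36.9% and 33.7% in the same classes, and 0%, 19.4%, 22.2%, 20.6% and 16.3% over all transcripts. The medians thus did not follow the pooled values in the shallowest class.

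The untreated libraries ranked members alike only in part. Spearman's rho of RRTS between them was 0.35 over the 524 members, most of which are at 0 in at least one library, and 0.71 over the 101 with reads in both. Between the untreated mean and G418 A rho was 0.31 (n = 524). These transcripts share their lengths and CDS in all libraries, and no p-value was computed.

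A region overlapped annotated CDS for 21 of the 515 matched members (4.08%), against 2.89% of all matched transcripts. These 21, with MDH1 and LDHB among them, had a pooled RRTS of 9.35% and 8.07% in Untreated A and B and 41.3% in G418 A. The 503 members without such an overlap or without a match had 4.18%, 3.00% and 41.8%. The pooled values thus differed in the untreated libraries and were at the same level in G418 A. MDH1 and LDHB weighed heavily in the untreated values of the 21. They held 36 and 27 of the 87 reads of the 21 members in Untreated A, and 44 and 29 reads in Untreated B. The pooled RRTS of the 21 without this pair was not computed, so no untreated difference from the 503 is claimed for the rest. The median RRTS of the 21 was 1.48% and 4.12% in Untreated A and B, against 0% in both for the 503. METTL1, a tRNA methyltransferase, had 225% in Untreated A and 0% in Untreated B in an 18 nt region, chosen here after its values were seen. Whether reads of the annotated CDS gave part of these values was not tested.

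By function, 86 of the 524 members fell into 19 of the 20 lists of gene families, which were set by symbol, and 9 lists had at least 5 members. Histones had no member. Lists are set beside the median of all UGAC members, 40.01% in G418 A, and hold too few genes to be called apart from it. Their medians moved with the choice of members, as given below where by over 1.5 times. Reads from genes with near-identical copies, such as FKBP1C, can have been assigned to the wrong copy.

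Ubiquitin conjugation and removal had 12 members with a median RRTS of 62.5% in G418 A, 6 of them above 40.01%. The median was 17.2% with 500 CDS reads as the minimum and 33.03% with at least 30 expected reads, both below that of all members. UBA1, the main ubiquitin-activating enzyme, had 12.8% in G418 A from 3 reads. UBE2C, the conjugating enzyme of the anaphase-promoting complex, had 2.27%, 4.16% and 92.0% (77.2 to 109) from 3, 9 and 137 reads, and UBE2A had none. The list thus spanned 0% to 156%, the top being the mitochondrial deubiquitinase USP30 with 14 reads in G418 A, named after its value was seen.

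Cell cycle genes had 11 members with a median of 38.2%, 5 of them above 40.01%. CDC37, an Hsp90 co-chaperone for kinases that the symbol pattern placed here, had no untreated read and 35.4% in G418 A. KIF2C, described above, had the highest value of this list. CDC16, a subunit of the anaphase-promoting complex, had 24.1%, 9.72% and 62.0%. CDC34, a ubiquitin-conjugating enzyme of SCF ligases, had 3.11%, 2.85% and 92.2% (77.1 to 109) from 2, 4 and 131 reads, and the kinesin KIF18B and the centriole protein CENPJ had no read in any library, all 3 named after their values were seen.

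Solute carriers had 7 members with a median of 51.8%, 5 of them above 40.01%, and each had reads in G418 A. SLC7A1, the cationic amino acid transporter, had 15.3%, 11.2% and 52.4%. SLC29A1, a nucleoside transporter, had no untreated read and 27.3% in G418 A, and SLC39A10, a zinc importer, had 0%, 6.33% and 51.8%. SLC31A1, the copper importer, had 17.4%, 10.997% and 117% and was named after its values were seen.

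Vesicle traffic genes had 7 members with a median of 86.8%, 5 of them above 40.01%, but only 1 to 17 reads each in G418 A and none in the untreated libraries. The median was 6.25% with at least 30 expected reads, 49.6% with regions of at least 60 nt, 153% with canonical stop codons alone and 162% with 500 CDS reads as the minimum, so it rests on the few genes that enter. VPS13A, a lipid transfer protein, had 153% from 3 reads, TRAPPC8, a subunit of a Golgi tethering complex, 171% from 4, and VPS35L, a subunit of the retriever complex, 49.6% from 4. STX6, a SNARE of the trans-Golgi network named after its values were seen, had the most reads of the list in G418 A, 17, and an RRTS of 86.8% (50.6 to 139).

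Small GTPases and their regulators had 7 members with a median of 30.4%, 3 of them above 40.01%. The median was above that of all members with 500 CDS reads as the minimum (83.6%), with no minimum (48.95%) and with canonical stop codons alone (58.7%). RAB3GAP2, a regulator of RAB GTPases, had 0%, 111% and 157% from 0, 7 and 7 reads. RAB11B, a GTPase of recycling endosomes, had 0%, 4.01% and 10.5%, and RAB34 had 0%, 5.46% and 30.4%. Chaperones had 6 members with a median of 30.4% and 1 above 40.01%. Their median was 10.1% with 500 CDS reads as the minimum and 15.8% with at least 30 expected reads. FKBP8, named above, had 7.31% in G418 A, the DnaJ protein DNAJC8 had 0%, 8.36% and 10.1%, and the immunophilin FKBP5 had 9.81%, 8.32% and 21.5%.

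Initiation and elongation factors had 5 members with a median of 16.7%, which was 46.1% with no CDS minimum and 71.4% with regions of at least 60 nt, above that of all members in both. EIF3B, a scaffold subunit of eIF3, had 0%, 0.542% and 8.80%, and EIF3J, a loosely bound subunit, had 9.50%, 0% and 16.7%. EIF2B2, a subunit of the eIF2 exchange factor, had no untreated read and 134% (90.4 to 191). RNA polymerase and Mediator genes had 5 members with a median of 17.6%, and 11.6% with 500 CDS reads as the minimum or with at least 30 expected reads. GTF3C5, a subunit of the RNA polymerase III factor TFIIIC, had no untreated read and 14.2%, POLR2L, a small subunit shared by the RNA polymerases, had 8.93%, and TAF1D had 322%. Zinc finger genes had 5 members with a median of 28.5%, and 14.3% with regions of at least 60 nt. ZNF574 had no read in any library, and ZNF592 and ZNF768 had 28.5% and 42.3% in G418 A from 6 and 2 reads. Each of these 3 lists had 2 genes above 40.01%.

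The smaller lists held 1 to 4 members each. RPS21, a protein of the small ribosomal subunit, had 4.90%, 1.93% and 67.2% (58.3 to 77.0) from 15, 10 and 207 reads in a region of 36 nt. RPL28, the other cytosolic ribosomal protein, had none in any library, and its stop codon is not the canonical one. The mitochondrial ribosomal proteins MRPL11, MRPS12, MRPS18A and MRPL53 had 45.8%, 22.9%, 28.9% and 228% in G418 A. The respiratory chain members NDUFB11, CYC1 and NDUFA7 had 30.4%, 56.1% and 78.9%. The proteasome ATPase PSMC4 had 22.2%, the V-ATPase accessory subunit ATP6AP1 30.8% and the mitochondrial import chaperone TIMM13 30.9%. In the splicing list, the scaffold PRPF8 had 23.3% and RBM3, described above, had 0%. The TMEM members TMEM138, TMEM201 and TMEM132A had 98.9%, 58.8% and 0%, and the mitochondrial tRNA synthetases AARS2 and LARS2 had 13.2% and 0%, with 1 read between them. The peroxisome list held MDH1 and LDHB alone.

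CDS densities of the members were mostly alike with and without the drug. Relative to the untreated mean, the CDS density with G418 rose by a log2 difference of 1 or more for 9 members (1.72%), against 1.08% of all transcripts, and fell by as much for 1, against 0.0919%. Between the untreated libraries, Untreated B was higher by at least 1 for 4 members and lower for 1, against 0.257% and 0.147% of all transcripts. The largest change was that of PPP1R14B, an inhibitor of protein phosphatase 1, whose CDS held 6.15 RPM in Untreated A, 12.1 RPM in Untreated B and 33.1 RPM in G418 A, a log2 difference of 1.86. SLC6A8, the creatine transporter, had 15.7, 12.8 and 42.5 RPM (1.58 on the log2 scale). Both G418 levels lay above both untreated levels, and the untreated levels of PPP1R14B themselves differed by 0.98 on the log2 scale. With Untreated A as the only control, the count that rose was 18 and none fell.

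ZMYND19 had 19.6, 23.3 and 59.6 RPM (log2 difference 1.47) and CSK, a kinase that restrains Src family kinases, had 16.6, 25.6 and 53.6 RPM (1.35). RAB31, EPHX4, RCE1, GUK1 and HRAS also passed this limit, with 1.02 to 1.32. ID3, an inhibitor of basic helix-loop-helix transcription factors, was the 1 member that fell, from 32.6 and 40.9 RPM to 17.9 RPM (log2 difference -1.04). Its readthrough region held 10, 2 and 89 reads, and its RRTS was 11.6%, 1.15% and 153% (123 to 189). The CDS density is the denominator of the RRTS, so a fall in it raises the RRTS at the same number of readthrough reads. Across members, Spearman's rho between CDS density and RRTS in G418 A was 0.02 (n = 524). The RRTS in G418 A of the 9 others ran from 0% in GUK1 to 113% in RCE1.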

How the data were processed

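Per the study's methods, the authors' pipeline ran as follows. Reads were collapsed by molecular identifier, freed of linker and of noncoding RNA, and aligned to hg38 with GENCODE 30 as the annotation, and fragments of 28 to 35 nt were assigned by ribosomal A site to 1 transcript per gene, that with the 3′-most stop codon. CASAVA 1.8 and STAR are named in the submitters' processing notes. The authors deposited, per transcript and region, RPM values (reads over the library's total, on a fixed scale), RPKM densities (RPM per kilobase), whole-number read counts, and the ribosome readthrough score (RRTS) as a ratio of the RPKM density between the stop codon and the next in-frame stop codon to that of the CDS. The region past the stop codon is counted without its first 6 nt, and its length runs to the end of the 3′TC. The CDS is counted without its first 18 and last 15 nt. Primary alignments of reads with several matches were kept, so that near-identical genes share reads.

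Members, gene lists and names were chosen with earlier results of these data known. The count minimum used the deposited counts, and all other values used reads recovered from the RPM steps (100% whole within 0.01 in each library), since the deposited CDS count was 1 lower than those reads for 9080 of 9099 transcripts in Untreated A. The reads behind the RPM scale were 5857230 and 9477972 in Untreated A and B and 7216039 in G418 A. A floor of 3 reads over all members equals a pooled RRTS of 0.0193%, 0.0113% and 0.0144%. The pooled RRTS is observed reads over the reads expected from each CDS density. Intervals are exact 95% Poisson intervals of the reads, with the expected number taken as fixed, and Wilson 95% intervals of shares. The Poisson intervals were run on reads simulated with Poisson error alone and the same fixed expected numbers, which cannot show error beyond counting. The Wilson intervals were not run on simulated data.

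Stop codons were matched to GENCODE 44 on hg38 by transcript, by the 4 nucleotides of the signal and by the distance to the next in-frame stop codon. Coordinates are those of hg38. Genes were named as the 12 highest in G418 A with at least 20 reads, the 8 lowest with at least 100 expected reads, the 8 highest untreated with at least 5 reads in each library, genes known for readthrough after UGAC, the 2 shortest and 2 longest regions, the 4 largest CDS changes each way, and 2 to 3 per gene list with the most CDS reads. Python 3.11.15, numpy 2.4.6, pandas 2.3.3, scipy 1.17.1 and matplotlib 3.10.9 were used. Alternatives were other minimums of CDS reads and region length, other thresholds and means, each untreated library left out, and 3 splits chosen after the data were seen.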

Additional observations from a re-analysis of the deposited data

How the results depend on the processing

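Each of 31 results was recomputed under up to 14 other settings, which gave 243 values. Of these values, 208 stayed within the spread or the 1.5-fold limit set for them and 35 did not. A change of direction was not looked for. G418 had 1 library, so no alternative speaks to the spread between treated cultures. Among the untreated, leaving out either library gave 10 to 18 members whose CDS density rose and 0 to 1 whose density fell, with 18 and 0 when Untreated B was left out.

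With 500 CDS reads as the minimum mean (180 members), the pooled RRTS in G418 A was 38.8%, 94.4% had reads, 74 had an RRTS of at least 50%, 80 had a G418 interval above the untreated ones, the counts of CDS densities that rose and fell were 0 and 0, and the median with G at +5 was 66.8%. With no minimum (866), 74.8% had reads, 341 had at least 50%, 44 rose and 7 fell in CDS density, and the median for a CDS of at least 2400 nt was 26.0%. With regions of at least 60 nt (308), the untreated mean was 2.86%, the G418 value 38.2%, the fold 13.4, the share with reads 90.6% and the count of at least 50% was 112. Without the 1% of members with the most readthrough reads the G418 value was 39.0%. With an RRTS of 0 left out, the median was 47.3%, with 67.6% for regions of 18 to under 60 nt, 42.2% and 59.9% for a CDS of 1200 to under 2400 nt and of at least 2400 nt, and 41.0% with C at +5. A limit of 100% gave 88 members. The unweighted mean of the deposited RRTS was 8.03% untreated and 57.4% in G418 A, a fold of 7.15. In splits chosen after the data were seen, canonical stop codons alone gave 48.0% in G418 A, and members with at least 30 expected reads gave a pooled value of 37.7%, a median of 35.6%, a share of 96.4%, and medians of 38.4% for a CDS of 600 to under 1200 nt and 33.9% with A at +5. Fewer members enter each of these settings except that without a minimum, the limit of 100% and the unweighted mean. No paired analysis was possible because the groups share only 1 replicate number and G418 has 1 library. The median log2 shift of CDS density over all transcripts was 0.07.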
